A study of Mus musculus with 12 samples.

Results

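The 10 genes described here encode antioxidant enzymes (Sod2, Hmox1, Nqo1, Gclc, Gclm, Txnrd1 and Srxn1), the cystine importer subunit Slc7a11 and the metallothioneins Mt1 and Mt2. They were chosen by gene symbol for their part in oxidative stress defence. The rule uses no measured value, but earlier results of these data were known when it was written, so the counts of members below are not those of a blind choice. They are 10 of the 23329 genes listed in the count tables, and all 10 were among the 13038 genes that passed the filter on low counts.

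Primary stromal cells of the C57BL6/J mouse small intestine, labelled intestinal myofibroblast, were profiled by poly(A)-selected, strand-specific mRNAseq to ask how embryonic and adult stroma respond to an inflammatory stimulus. The 4 groups were embryonic (E14.5) and adult stroma, each treated for 6 h with lipopolysaccharide (LPS) from Escherichia coli O111:B4, stated as 10 µg/µl, or with PBS, with 3 libraries per group. Each embryonic culture pooled 6 embryos, the adult cultures came from 3 mice, and cells of all groups were at passages 2 to 3 in medium holding 50 µM β-mercaptoethanol (a thiol reducing agent) and 1 µM Y27632. Same-numbered LPS and PBS libraries within a stage deviated from their group means together and are called a culture below, a pairing that was inferred from the numbers and this check.

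The libraries held 18850224 to 32672370 gene counts, so that a floor of 3 counts stood at 0.0896 to 0.144 CPM (a read count scaled to the TMM-normalized library size). The summed level of 9 stromal markers was 23147 to 44131 CPM, and 4 of 5 epithelial markers (Epcam, Cdh1, Vil1 and Lgals4) did not pass the filter. The fifth, Krt20, passed and was higher in embryonic stroma with PBS (log2 difference 1.87, adjusted p = 0.0298) and with LPS (1.84, adjusted p = 0.0282), and the epithelial sum was 21.9 to 59.6 CPM in embryonic and 7.50 to 13.8 CPM in adult libraries. The summed level of 12 macrophage markers was 155 to 2135 CPM in embryonic and 7.19 to 96.8 CPM in adult libraries, and that of 5 endothelial markers reached 1771 CPM in adult culture 2. From such bulk RNA alone fewer cells of a type and less RNA per cell cannot be told apart. By flow cytometry the paper reports a higher percentage of CD45+CD11b+ leukocytes in embryonic than in adult stromal cultures.

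NRF2, the product of Nfe2l2, is held back by KEAP1 and, once released by oxidants or electrophiles, switches on genes such as Hmox1, Nqo1, Gclc, Gclm, Txnrd1, Srxn1 and Slc7a11 through antioxidant response elements (ARE), while BACH1 represses several of them. Metallothioneins bind zinc and copper and are switched on by MTF1 through metal response elements (MRE), and also by stress hormones and cytokines. Sod2, the superoxide dismutase of mitochondria, is a classical target of NF-κB in inflamed cells, and Slc7a11 is also a target of ATF4, a factor of amino acid shortage.

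Promoter windows of 250 bases before a start annotated in RefSeq (GRCm38.p6) were at hand for 8 of the 10 genes. Windows of Hmox1 and Gclc, which RefSeq also annotates, were not available for this search. These windows were searched on both strands for the ARE core (TGACNNNGC or TGAGNNNGC), the MRE core (TGCACNC or TGCGCNC), the core of the amino acid response element bound by ATF4 (TGATGCAA) and the NF-κB consensus. The windows of 4 genes are shown because these genes moved with LPS or stand for a class, and capitals mark the NF-κB match in Sod2, the TGATGCAA matches in Slc7a11, the MRE matches in Mt2 and the ARE matches in Srxn1. Coordinates are chr17:13007589-13007838 (plus strand) for Sod2, chr3:50443614-50443863 (minus strand) for Slc7a11, chr8:94172368-94172617 (plus strand) for Mt2 and chr2:152105274-152105523 (plus strand) for Srxn1. The Slc7a11 window precedes an annotated start that lies inside the full span of the gene (chr3:50364936-50499087).
Sod2: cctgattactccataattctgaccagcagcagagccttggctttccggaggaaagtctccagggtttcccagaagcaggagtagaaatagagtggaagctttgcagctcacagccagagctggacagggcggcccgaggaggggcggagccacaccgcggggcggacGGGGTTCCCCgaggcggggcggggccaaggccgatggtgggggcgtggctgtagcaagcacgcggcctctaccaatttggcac
Slc7a11: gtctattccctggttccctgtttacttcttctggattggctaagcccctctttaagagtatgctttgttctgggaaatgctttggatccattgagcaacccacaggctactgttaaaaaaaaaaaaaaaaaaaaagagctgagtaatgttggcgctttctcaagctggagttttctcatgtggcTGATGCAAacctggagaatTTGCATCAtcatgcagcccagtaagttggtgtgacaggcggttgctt
Mt2: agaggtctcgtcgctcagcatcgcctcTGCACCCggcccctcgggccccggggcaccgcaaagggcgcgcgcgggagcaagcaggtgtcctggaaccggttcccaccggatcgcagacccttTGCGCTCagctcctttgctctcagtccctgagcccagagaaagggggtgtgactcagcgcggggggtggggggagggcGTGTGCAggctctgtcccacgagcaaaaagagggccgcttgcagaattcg
Srxn1: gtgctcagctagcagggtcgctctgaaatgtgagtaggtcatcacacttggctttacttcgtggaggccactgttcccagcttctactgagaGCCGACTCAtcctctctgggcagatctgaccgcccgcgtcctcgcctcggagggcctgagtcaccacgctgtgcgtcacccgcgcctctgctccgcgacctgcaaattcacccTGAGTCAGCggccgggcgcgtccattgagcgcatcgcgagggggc

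The Sod2 window held 1 match to the NF-κB consensus, at positions -83 to -74 counted back from the annotated start, and 8.23% of all genes with a window held one. The Slc7a11 window held TGATGCAA at -66 to -59 and, on the opposite strand, at -47 to -40, a core found for 0.918% of genes. An ARE core was present for 5 of the 8 genes (Srxn1, Slc7a11, Gclm, Mt2 and Txnrd1) against 25.7% of all genes, and an MRE core for 4 (Mt2, Mt1, Gclm and Srxn1) against 23.8%. Txnrd1 had several windows, and only that at chr10:82858956-82859205 held an ARE core. Srxn1 held TGAGTCAGC at -45 to -37 and a second match, TGAGTCGGC, on the opposite strand at -158 to -150. Mt2 held TGACTCAGC at -79 to -71 beside its 3 MRE cores. Both TGAGTCAGC and TGACTCAGC include the AP-1 site TGANTCA, so the same letters fit more than 1 factor. These matches describe the letters of the windows only, and elements farther away were not searched.

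Genes were tested in 2 ways, without regard to culture and with the culture as a block, which compares LPS with PBS inside each culture. Both fits used all 12 libraries of both stages with a shared estimate of the spread. Genes were called at an adjusted p under 0.05. Without the block, 2 of the 10 genes (Sod2 and Slc7a11) rose with LPS in embryonic stroma, where 2.75% of all tested genes were called, and 0 of 10 in adult stroma, where 0.606% were called and 2 of the 10 (Sod2 and Slc7a11) had an unadjusted p under 0.05 in the edgeR test. With the block, 4 of the 10 (Sod2, Slc7a11, Mt2 and Txnrd1) rose in embryonic stroma beside 12.5% of all tested genes, and 3 (Sod2, Mt2 and Txnrd1) rose in adult stroma beside 6.2%. With each stage fitted alone without the block, embryonic stroma gave 0 members among 4 called genes. Adult stroma gave 2 members (Sod2 and Slc7a11) among 225 called genes. None of the 10 fell in either stage. The median of their unblocked log2 fold changes stood at 0.33 (embryonic) and 0.45 (adult), and that of all tested genes at -0.000247 and -0.00751.

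Sod2 (chr17:13007839-13018119) and Slc7a11 (chr3:50364936-50499087) were the members whose LPS and PBS libraries did not overlap in either stage. How many of all tested genes separate in this way was not counted, so the separation is a description only. In embryonic stroma, Sod2 stood at 50.6, 53.8 and 59.2 CPM with PBS in cultures 1 to 3 and at 80.8, 133 and 301 CPM with LPS. All 3 LPS libraries were above all 3 PBS libraries, and the PBS libraries were nearly even while the LPS libraries spread widely. Sod2 rose 3.15-fold (log2 fold change 1.65, SE 0.38, n = 3 against 3, adjusted p = 0.04997, edgeR quasi-likelihood test). This call lies just under the threshold of 0.05 and was lost in most other settings, with adjusted p = 0.0556 under other size factors. Without embryonic LPS replicate 3 the log2 fold change was 0.94 (adjusted p = 0.0575). With the culture as a block it was 1.44 (SE 0.27, adjusted p = 0.0117).

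In adult stroma, Sod2 stood at 54.4, 55.2 and 51.1 CPM with PBS and at 125, 144 and 98.3 CPM with LPS. The LPS libraries were again all higher, and the PBS level was like that of embryonic stroma. The difference of 2.29-fold (log2 fold change 1.19, SE 0.38) did not pass the threshold without the block (adjusted p = 0.376) and passed it with the block (1.18, SE 0.26, adjusted p = 0.0398). That call was lost when both libraries of adult culture 1, 2 or 3 were left out (adjusted p = 0.235, 0.221 and 0.181), although the log2 fold change stayed between 1.06 and 1.28.

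Slc7a11, the light chain of the cystine and glutamate exchanger that feeds glutathione synthesis, stood at 5.57, 11.4 and 5.65 CPM with PBS and at 21.6, 31.1 and 79.7 CPM with LPS in embryonic stroma. Every LPS library was above every PBS library, with culture 3 highest by far after LPS. Slc7a11 rose 5.86-fold (log2 fold change 2.55, SE 0.47, adjusted p = 0.0184), and 5.23-fold with the block (2.39, SE 0.42, adjusted p = 0.00896). The call without the block was lost without embryonic PBS replicate 1 (adjusted p = 0.0952) or replicate 3 (0.0760). It was also lost in the edgeR test with the embryonic libraries fitted alone (adjusted p = 0.202). Without embryonic LPS replicate 3 the log2 fold change was 1.78 (adjusted p = 0.0248).

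In adult stroma, Slc7a11 stood at 8.53, 8.62 and 6.06 CPM with PBS and at 22.5, 23.0 and 28.5 CPM with LPS. The groups did not overlap and the LPS libraries were close together. The log2 fold change of 1.67 (SE 0.46) did not pass the threshold in the edgeR test without the block (adjusted p = 0.229) or with it (1.68, SE 0.41, adjusted p = 0.0547). The call depended on the setting, since DESeq2 called Slc7a11 without the block (adjusted p = 0.0231) and with it (0.0224), and edgeR did with the adult libraries fitted alone (0.0116) or without embryonic LPS replicate 3 (0.0332). Over all settings the log2 fold change lay between 1.39 and 1.82.

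The ratio of LPS to PBS inside each embryonic culture was 1.59, 2.48 and 5.07 for Sod2 and 3.84, 2.73 and 14.0 for Slc7a11 in cultures 1, 2 and 3. The 12 macrophage markers summed to 192, 314 and 2135 CPM in these cultures with PBS and to 155, 758 and 1609 CPM with LPS. Culture 3 was thus highest in both ratios and in the marker sum. In adult culture 2, where the marker sum was lowest at 9.92 CPM with PBS and 7.19 CPM with LPS, the ratio was 2.62 for Sod2 and 2.65 for Slc7a11. The part of macrophages in the embryonic values was not tested.

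**Figure D1:**
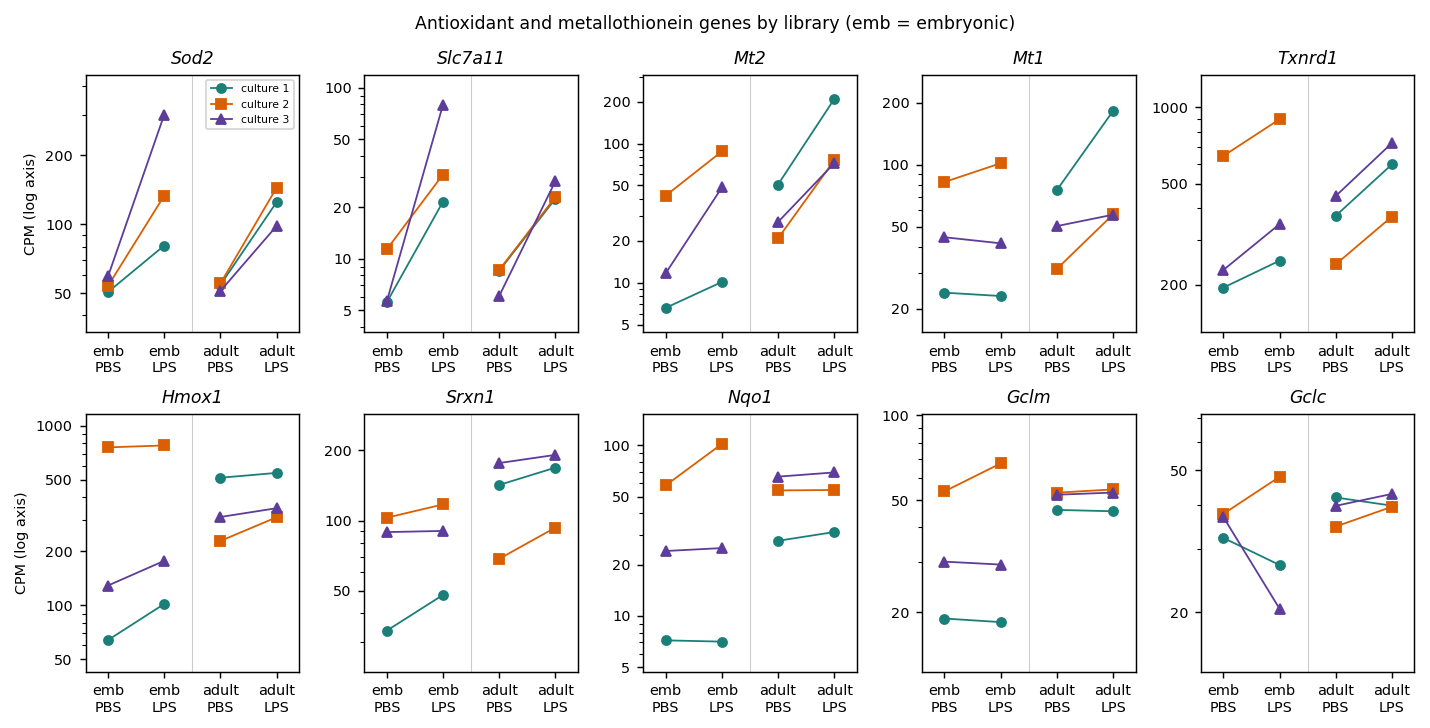
CPM (log axis) of each gene in the 12 libraries, with a line joining the PBS and LPS libraries of the same culture in embryonic (emb) and adult stroma. Sod2 and Slc7a11 separate by treatment in both stages, whereas Hmox1, Nqo1, Gclm and Txnrd1 keep the order of the embryonic cultures, with culture 2 highest under both treatments. The share of all tested genes with either pattern was not counted.

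The 2 metallothionein genes, neighbours on chromosome 8 that encode small cysteine-rich metal-binding proteins, moved unequally. In adult stroma, Mt2 (chr8:94172618-94173567) stood at 50.8, 20.8 and 27.3 CPM with PBS and at 209.0, 75.8 and 72.2 CPM with LPS. The adult LPS libraries were all above the PBS libraries, and culture 1 was highest under both treatments. Mt2 had a log2 fold change of 1.85 (SE 0.85) that did not pass the threshold without the block (adjusted p = 0.920), and rose 3.41-fold with it (1.77, SE 0.24, adjusted p = 0.0044). Without both libraries of adult culture 1 the blocked value was 1.63 (adjusted p = 0.0616).

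In embryonic stroma, Mt2 stood at 6.59, 42.2 and 11.7 CPM with PBS and at 10.1, 87.9 and 48.3 CPM with LPS. The groups overlapped because culture 2 was high and culture 1 low under both treatments, but each culture was higher with LPS. The log2 fold change of 1.27 had an SE of 0.84 without the block (adjusted p = 0.769) and of 0.25 with it, where Mt2 rose (adjusted p = 0.0141).

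Mt1 (chr8:94178883-94180327) stood at 75.3, 31.3 and 50.4 CPM with PBS and at 182, 57.4 and 57.2 CPM with LPS in adult stroma. Every adult culture was higher with LPS, with ratios of 2.42, 1.83 and 1.14, but the groups overlapped. The blocked log2 fold change was 0.78 (SE 0.19) and did not pass the threshold in the edgeR test (adjusted p = 0.0504), whereas DESeq2 with the block called Mt1 (0.77, adjusted p = 0.000691). Of the 8 blocked fits 4 called it, and without both libraries of adult culture 1 the value was 0.52 (adjusted p = 0.297). In embryonic stroma Mt1 stood at 24.0, 82.4 and 44.5 CPM with PBS and at 23.1, 102 and 41.6 CPM with LPS. Only culture 2 was higher with LPS, and the blocked log2 fold change was 0.05 (SE 0.19, adjusted p = 0.896).

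The CPM of Mt2 relative to Mt1 was 0.627 ± 0.0743 (SD, n = 3) with PBS and 1.24 ± 0.0875 with LPS in adult stroma, and 0.350 ± 0.141 with PBS and 0.822 ± 0.364 with LPS in embryonic stroma. The adult ranges were 0.542 to 0.674 with PBS and 1.15 to 1.32 with LPS, without overlap, and the embryonic ranges overlapped (0.262 to 0.512 and 0.438 to 1.16). In all 6 cultures the ratio was higher with LPS. Mtf1, which encodes the zinc-sensing activator of both genes, had log2 fold changes of 0.20 (SE 0.10, adjusted p = 0.251) in embryonic and 0.14 (SE 0.10, adjusted p = 0.542) in adult stroma with the block. Of a list of 5 zinc handling genes that holds Mtf1, 4 were tested and none was called in either stage with or without the block.

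Txnrd1 (chr10:82833951-82897724) encodes the cytosolic thioredoxin reductase, a selenoenzyme that keeps thioredoxin reduced. In embryonic stroma it stood at 195, 643 and 229 CPM with PBS and at 249, 896 and 346 CPM with LPS. In adult stroma it stood at 374, 241 and 447 CPM with PBS and at 596, 371 and 723 CPM with LPS. The groups overlapped in both stages, and each of the 6 cultures was higher with LPS.

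The ratios of LPS to PBS for Txnrd1 were 1.28, 1.39 and 1.52 in the embryonic and 1.59, 1.54 and 1.62 in the adult cultures. The adult ratios were all above the embryonic ones, but the difference between the stages did not pass the threshold (blocked log2 fold changes of 0.48 and 0.66, each with an SE of 0.07, interaction -0.19, SE 0.10, adjusted p = 0.655). How many of all tested genes have ratios that do not overlap between the stages was not counted. Txnrd1 was called only with the block, with adjusted p = 0.00325 in embryonic stroma and 0.00121 in adult stroma, against 0.972 and 1 without it. It was still called in both stages when both libraries of any 1 culture were left out.

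Srxn1 (chr2:152105524-152111376), sulfiredoxin, repairs over-oxidized peroxiredoxins. It stood at 33.7, 103 and 89.2 CPM with PBS and at 48.0, 117 and 90.3 CPM with LPS in embryonic cultures, and at 142, 68.5 and 177 CPM with PBS and 169, 93.3 and 191 CPM with LPS in adult stroma. All 6 cultures were higher with LPS by ratios of 1.01 to 1.42, while the groups overlapped. The blocked log2 fold changes of 0.23 in embryonic stroma (adjusted p = 0.197) and 0.27 in adult stroma (adjusted p = 0.219) did not pass the threshold.

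**Figure D2:**
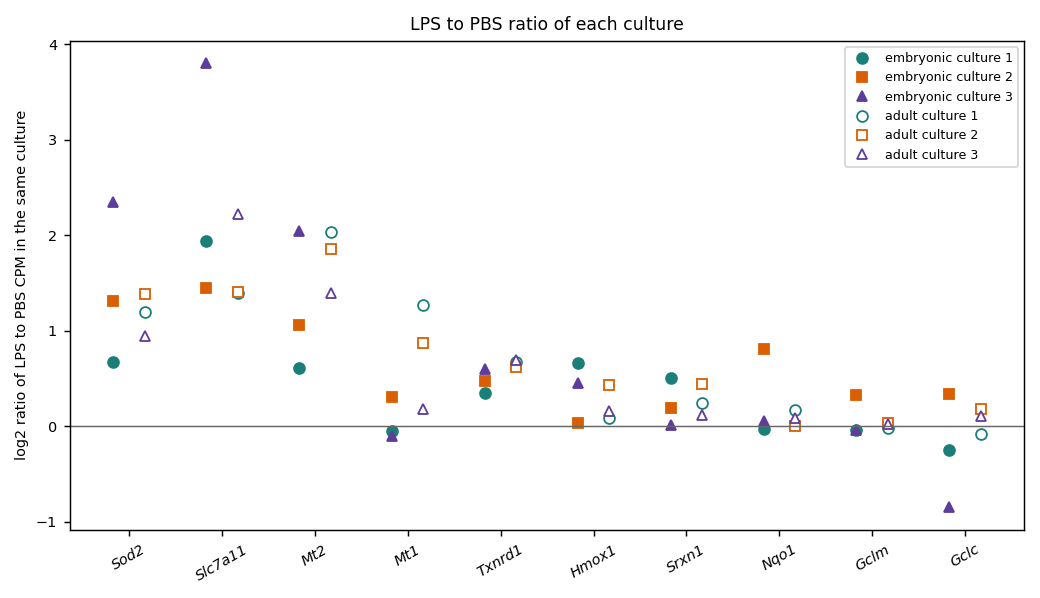
Log2 ratio of LPS to PBS CPM inside each of the 3 embryonic (filled) and 3 adult (open) cultures for the 10 genes, with the line at 0 marking no difference. The ratios of Sod2, Slc7a11, Mt2 and Txnrd1 lie above 0 in all 6 cultures, and those of Gclm run from -0.04 to 0.33.

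Hmox1 (chr8:75093618-75100593) encodes the inducible heme oxygenase, which splits heme into biliverdin, iron and carbon monoxide. In embryonic stroma it stood at 64.1, 758 and 129 CPM with PBS and at 102, 777 and 177 CPM with LPS. Culture 2 was far above the other embryonic cultures under both treatments, and the treatments overlapped. In adult stroma Hmox1 stood at 513, 228 and 311 CPM with PBS and at 546, 309 and 348 CPM with LPS. The ratio of LPS to PBS was above 1 in all 6 cultures, from 1.02 in embryonic culture 2 to 1.59 in embryonic culture 1. The blocked log2 fold changes were 0.38 in embryonic stroma (adjusted p = 0.0852) and 0.23 in adult stroma (adjusted p = 0.399).

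Nqo1 (chr8:107388225-107403205), a quinone reductase often read as a sign of NRF2 activity, stood at 7.20, 58.2 and 24.0 CPM with PBS and at 7.07, 102 and 25.0 CPM with LPS in embryonic stroma. Embryonic culture 2 alone was higher with LPS by more than 1.1-fold, with a ratio of 1.75. In adult stroma Nqo1 stood at 27.6, 54.4 and 65.5 CPM with PBS and at 31.0, 54.7 and 69.3 CPM with LPS. The adult ratios were 1.13, 1.01 and 1.06, and the blocked log2 fold changes were 0.31 in embryonic stroma (adjusted p = 0.243) and 0.09 in adult stroma (adjusted p = 0.846).

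Gclc and Gclm encode the catalytic and the modifier subunit of glutamate-cysteine ligase, the rate-limiting enzyme of glutathione synthesis. Gclm (chr3:122245487-122267215) stood at 19.0, 53.7 and 30.2 CPM with PBS and at 18.4, 67.5 and 29.5 CPM with LPS in embryonic cultures, and lay between 45.6 and 54.5 CPM in the 6 adult libraries. Gclc (chr9:77754535-77794489) stood at 32.3, 37.7 and 37.0 CPM with PBS and at 27.1, 47.9 and 20.5 CPM with LPS in embryonic cultures, and lay between 34.8 and 42.9 CPM in the adult libraries. For both subunits the adult libraries were even and the treatments overlapped in each stage. The blocked log2 fold changes were 0.09 for Gclm and -0.24 for Gclc in embryonic stroma and 0.02 and 0.07 in adult stroma. None passed the threshold. The embryonic ratios of LPS to PBS for Gclc were 0.840, 1.27 and 0.555 in cultures 1, 2 and 3.

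Of the 10 genes, 6 (Sod2, Slc7a11, Mt2, Txnrd1, Hmox1 and Srxn1) were higher with LPS in all 6 cultures, as were 13.0% of the 13038 tested genes. In the 3 embryonic cultures 6 of 10 were higher with LPS throughout, against 23.1% of tested genes, and in the 3 adult cultures 8 of 10, against 24.0%. The members share their cultures, so these counts do not come from separate observations.

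Cultures of the same group differed widely in most of these genes. The highest of the 3 embryonic PBS libraries exceeded the lowest 11.8-fold for Hmox1, 8.09-fold for Nqo1 and 6.40-fold for Mt2. Over 12519 genes the median of this ratio was 1.45, and 8 of the 10 genes were above it, the exceptions being Sod2 and Gclc at 1.17 each. In adult PBS libraries the ratio ranged from 1.08 for Sod2 to 2.58 for Srxn1, with a median of 1.27 over the same genes.

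**Figure D3:**
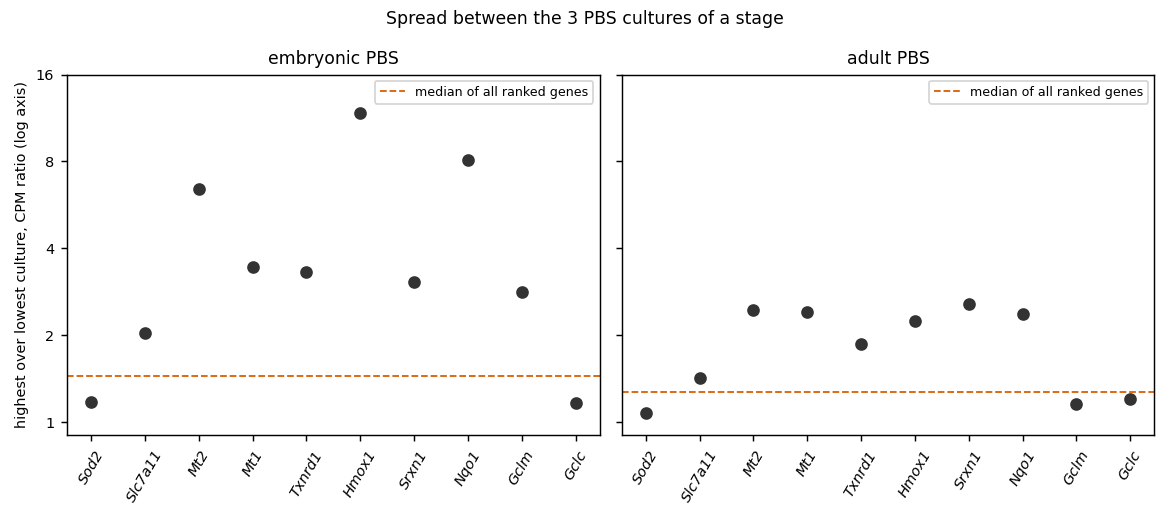
Ratio of the highest to the lowest of the 3 PBS libraries of a stage (log axis) for the 10 genes, with the dashed line at the median of all 12519 ranked genes, 1.45 in embryonic and 1.27 in adult stroma. Hmox1 reached 11.8 and Nqo1 8.09 among embryonic cultures, while Sod2 stayed below the median in both stages.

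Embryonic culture 2 was the highest of the 3 embryonic cultures under both treatments for Hmox1, Nqo1, Gclm, Gclc, Txnrd1, Srxn1, Mt1 and Mt2. With PBS it exceeded the mean of the other two embryonic cultures 7.85-fold for Hmox1, 4.62-fold for Mt2, 3.73-fold for Nqo1 and 3.04-fold for Txnrd1. For Sod2 the same ratio was 0.979 with PBS and 0.699 with LPS. The PBS and LPS libraries of a culture deviated together, so they are not separate observations. How many of all tested genes were highest in culture 2 was not counted. Over all genes, embryonic libraries also differed most in the pairs that held culture 2. The chi-square per gene was 152 and 206 against 93.2 with PBS, and 184 and 234 against 136 with LPS. Culture 2 also had the largest share of unmapped reads among embryonic libraries, 2.49% with PBS and 2.02% with LPS, against 1.10% to 1.32% in the other embryonic libraries. Its mesothelial markers summed to 445 and 361 CPM with PBS and LPS, against 108 to 121 CPM in the other embryonic libraries, and its stromal markers to 33898 and 23180 CPM, against 38615 to 44131 CPM. The part of these differences in its antioxidant levels was not tested.

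With both libraries of embryonic culture 2 left out, the blocked fit called 5 of the 10 genes in embryonic stroma, Hmox1 among them (log2 fold change 0.56, adjusted p = 0.0117), beside 15% of the tested genes. In adult stroma the same fit called 5, with Slc7a11 (1.68, adjusted p = 0.0262) and Mt1 (0.78, adjusted p = 0.0449) added, beside 8.36% of tested genes. This fit was chosen after seeing the data.

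None of the 10 genes differed between embryonic and adult stroma past the threshold, with PBS, where 4.08% of all tested genes were called, or with LPS, where 5.31% were called. No member had an unadjusted p under 0.05 in these edgeR tests. With PBS the log2 differences, embryonic minus adult, ran from -0.78 (SE 0.49) for Srxn1 to 0.03 (SE 0.37) for Sod2. With LPS they ran from -1.29 (SE 0.84) for Mt2 to 0.84 (SE 0.45) for Slc7a11. The standard errors were 0.91 for Hmox1 and 0.89 for Nqo1, so that differences of several fold in these genes were within the spread.

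The result depended on embryonic culture 2, the highest embryonic culture for Hmox1, Gclm and Gclc under both treatments. Leaving it out was chosen after seeing the data and lowers the embryonic means of these genes by construction. The calls below are therefore not those of a planned test. No other culture was left out whole in the tests between stages. With both libraries of embryonic culture 2 left out, Hmox1 was lower in embryonic than adult stroma with PBS by a log2 difference of -1.87 (adjusted p = 0.0458, edgeR test). Gclm was lower by -1.04 (adjusted p = 0.0354), beside 9.75% of tested genes. With LPS, Gclm was lower by -1.10 (adjusted p = 0.0299) and Gclc by -0.78 (adjusted p = 0.0171), beside 10.4%. The other embryonic libraries held 64.1 to 177 CPM of Hmox1 and 18.4 to 30.2 CPM of Gclm, below all adult libraries (228 to 546 and 45.6 to 54.5 CPM).

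No member showed a stage by LPS interaction. The interaction was called for 0 of the 10 genes and for 0% of tested genes without the block in the edgeR test, where 293 genes and none of the members had an unadjusted p under 0.05, and DESeq2 called 25 genes, no member among them. With the block 0.844% of tested genes and again none of the 10 were called. The smallest unadjusted p among the members was that of Mt1 (log2 difference, embryonic minus adult LPS effect, -0.73, SE 0.26, adjusted p = 0.451). For Slc7a11, with its ratio of 14.0 in embryonic culture 3, the blocked difference was 0.71 (SE 0.57, adjusted p = 0.808).

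Across the 12 libraries, deviations of log2 CPM from the group mean are described here as correlations over libraries that share cultures. Hmox1 went with Txnrd1 (r = 0.909) and Mt2 (0.911), Gclm with Nqo1 (0.967) and Mt1 with Mt2 (0.938). Embryonic culture 2 was the highest embryonic culture for all of these genes and weighs heavily in these values. Gclm lay between 45.6 and 54.5 CPM in the adult libraries, so its deviations were mainly embryonic. The correlations were not computed for each stage apart. Sod2 went with Slc7a11 (0.744), and its value was 0.084 with Hmox1 and 0.415 with Mt2, while that of Slc7a11 with Mt2 was 0.529. Gclc had negative values with Sod2 (-0.426) and Slc7a11 (-0.371) and positive ones with the other genes, from 0.411 with Mt2 to 0.671 with Txnrd1.

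**Figure D4:**
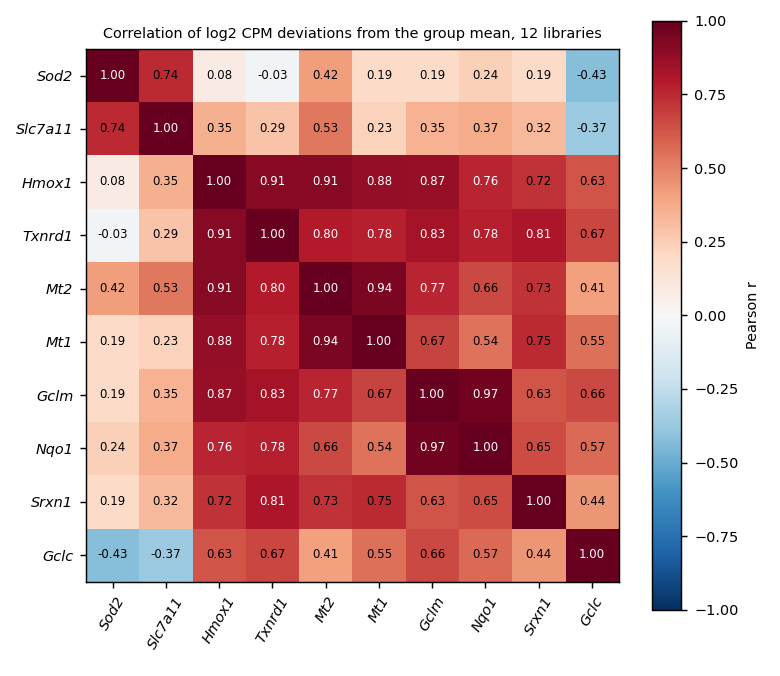
Pearson correlation of the deviations of log2 CPM from the group mean over the 12 libraries, for each pair of the 10 genes. Hmox1, Txnrd1, Mt2, Mt1, Gclm, Nqo1 and Srxn1 correlate at 0.542 to 0.967 with each other, and Sod2 and Slc7a11 at 0.744. Mt2 had values of 0.657 to 0.938 within the first set, 0.415 with Sod2 and 0.529 with Slc7a11. Embryonic culture 2, the highest embryonic culture for the first set, weighs heavily in these values.

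The tested genes most like each member over the 12 libraries, by the Pearson correlation of log2 CPM, were found by ranking all of them. They were Psme2 (r = 0.966), Ikbke (0.958) and Wdr59 (0.952) for Sod2, and Psma6 (0.973), Nub1 (0.967) and Nfkbiz (0.963) for Slc7a11. Psme2 encodes a proteasome activator subunit, Ikbke a kinase of innate signalling and Nfkbiz an inducible regulator of NF-κB. For Hmox1 they were Morn2 (0.958), Por (0.958) and Cdk2ap2 (0.953), for Txnrd1 Otub1 (0.972), Nip7 (0.967) and Hgs (0.956), and for Srxn1 Pex11a (0.967), Eml2 (0.949) and Anxa11 (0.948). For Gclm they were Mmp24 (0.957), the carbonyl reductase gene Cbr3 (0.953) and Ugdh (0.950), and for Nqo1 Tmem81 (0.949), Arhgdib (0.947) and the exporter gene Abcc4 (0.934). For Mt1 they were Got1 (0.965), Trim8 (0.952) and Dalrd3 (0.938), for Mt2 Spred1 (0.940), Mocs2 (0.940) and Trim8 (0.938), and for Gclc Pigb (0.920), Frrs1 (0.904) and 1700025G04Rik (0.898). Differences between groups, the LPS effect among them, were left in these correlations. The highest of so many values are high by selection, so they do not show a shared regulator.

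A wider list of 61 pathway genes, 58 of them tested, was read by role. Without the block 1 (Nfe2l1) rose in embryonic stroma and none in adult stroma, and with the block 14 rose and 2 fell in embryonic and 5 rose and 1 fell in adult stroma, beside 12.5% and 6.2% of all tested genes. With the block their log2 fold changes had medians of 0.11 in embryonic and 0.07 in adult stroma, against 0.0013 and -0.00896 over all tested genes. With the block no gene of the superoxide and peroxide removal list (8 tested) was called in either stage.

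Among the roles, NRF2 and its regulators held the largest share of calls with the block. Of 8 tested, 5 rose in embryonic stroma with the block (Nfe2l2, Nfe2l1, Bach1, Maff and Sqstm1) and 4 in adult stroma (the same without Maff), where 12.5% and 6.2% of all tested genes were called. Nfe2l2, the NRF2 gene, stood at 54.7, 105 and 95.3 CPM with PBS and at 106, 161 and 151 CPM with LPS in embryonic cultures, and at 110, 106 and 82.2 CPM with PBS and 198, 151 and 151 CPM with LPS in adult stroma. All LPS libraries were above all PBS libraries of their stage. Its blocked log2 fold change was 0.75 (SE 0.10, adjusted p = 0.00231) in embryonic and 0.74 (SE 0.10, adjusted p = 0.00437) in adult stroma.

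Bach1, the repressor at the same elements, rose by 0.83 (SE 0.11, adjusted p = 0.00202) in embryonic and 1.11 (SE 0.11, adjusted p = 0.00103) in adult stroma on the log2 scale with the block. Sqstm1, the autophagy receptor p62 that can displace KEAP1 from NRF2, rose by 1.17 (SE 0.13) and 1.14 (SE 0.13). Nfe2l1, which encodes a related factor of proteasome genes, was the wider list's call without the block (0.60, SE 0.11, adjusted p = 0.0175, embryonic stroma). Keap1 did not pass the threshold, with blocked values of 0.19 (SE 0.13) and -0.03 (SE 0.13).

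The other roles held fewer calls. With the block in embryonic stroma, against the same 12.5% of all tested genes, 3 of 8 glutathione genes (Slc3a2, Gsr and Gstm1), 2 of 11 thioredoxin and peroxiredoxin genes (Prdx5 and Glrx) and 3 of 6 NADPH oxidase genes (Cybb, Ncf1 and Ncf4) rose, and none of the first 2 roles was called in adult stroma. Slc40a1, ferroportin, the iron exporter, fell in both stages with blocked log2 fold changes of -1.86 (SE 0.26, adjusted p = 0.00307) and -1.40 (SE 0.29, adjusted p = 0.0306). Fth1, ferritin heavy chain, rose (0.62) and Idh1, which supplies NADPH, fell (-0.42) in embryonic stroma. Neither passed the threshold in adult stroma (0.38 and -0.20), and neither differed between stages in its LPS effect past the threshold.

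Cybb, the catalytic subunit of the phagocyte NADPH oxidase that makes superoxide, stood at 11.4, 20.3 and 118 CPM with PBS and at 62.8, 206 and 612 CPM with LPS in embryonic stroma. In adult stroma it stood at 4.10, 0.529 and 1.43 CPM with PBS and at 13.9, 1.57 and 5.83 CPM with LPS. Each culture was higher with LPS, and the order of the embryonic cultures was that of the macrophage marker sum with PBS. Cybb rose 6.61-fold in embryonic (log2 fold change 2.72, SE 0.18, adjusted p = 4.83e-05) and 3.53-fold in adult stroma (1.82, SE 0.25, adjusted p = 0.00505) with the block. Ncf1, a cytosolic subunit of the same enzyme, rose by 1.24 (SE 0.27, adjusted p = 0.0235) and Ncf4 by 0.97 (SE 0.25, adjusted p = 0.0409) in embryonic stroma.

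**Figure D5:**
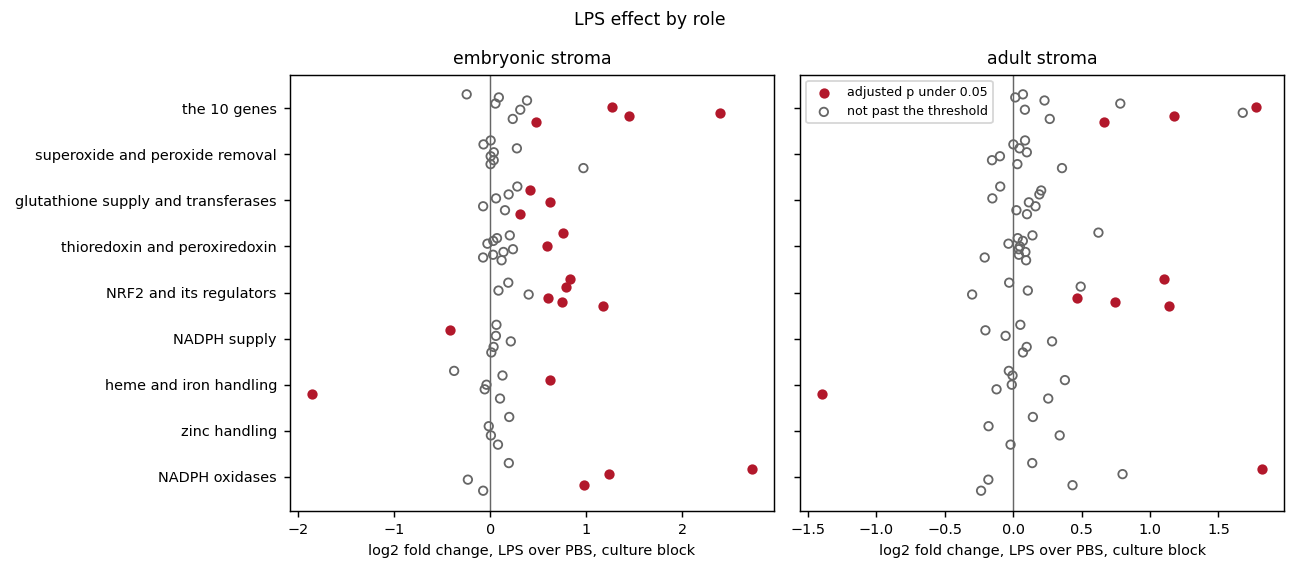
Log2 fold change of LPS over PBS with the culture block for the 10 genes and the 58 tested genes of the wider list, by role, in embryonic and adult stroma. Filled red points passed an adjusted p of 0.05, among them 5 of 8 NRF2 regulators in embryonic and 4 of 8 in adult stroma, and the point farthest left is Slc40a1 in each panel.

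Between stages, without the block, 2 of the 58 tested genes of the wider list were called with PBS and 3 with LPS, near the 4.08% and 5.31% of all tested genes. Sod3, the secreted superoxide dismutase, stood at 0.0301 to 0.587 CPM in embryonic and 12.6 to 26.8 CPM in adult libraries and was lower in embryonic stroma with PBS (log2 difference -6.26, SE 0.64, adjusted p = 0.00113) and with LPS (-5.63, SE 0.62, adjusted p = 0.00217). One of its embryonic values is under the level of 3 counts. Prdx6, a peroxiredoxin that also acts on phospholipids, was higher in embryonic stroma with PBS (0.93, SE 0.21, adjusted p = 0.0394) and with LPS (1.15, SE 0.21, adjusted p = 0.0189). Cybb was higher in embryonic stroma with LPS (5.37, SE 1.31, adjusted p = 0.0450), where the macrophage marker sum was 155 to 1609 CPM against 7.19 to 96.8 CPM in adult LPS libraries, and the part of macrophages in this difference was not tested. Nfe2l2, Keap1, Bach1 and Mtf1 were not called between stages.

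Per kilobase of transcript, the mean level with PBS followed the same order in both stages. In adult stroma it was 224 ± 93.5 CPM per kb (SD, n = 3) for Hmox1, 111 ± 32.8 for Txnrd1, 95.3 ± 40.2 for Mt1, 64.6 ± 30.8 for Mt2, 45.9 ± 19.6 for Srxn1 and 31.6 ± 12.6 for Nqo1. The lowest levels were 11.3 ± 1.07 CPM per kb for Gclc, 9.14 ± 0.366 for Sod2, 9.03 ± 0.680 for Gclm and 0.839 ± 0.157 for Slc7a11. Neighbours from Txnrd1 to Nqo1, and Sod2 and Gclm, differed by less than the larger of their SDs, and Slc7a11 was the lowest in every group. With LPS in adult stroma Mt2 reached 233 ± 153 CPM per kb, beside 256 ± 81.1 for Hmox1.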

How the data were processed

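Poly(A)-selected, stranded single-end libraries (75 bases) were aligned by the authors with STAR to GRCm38.p6, with at most 1 mismatch and unique reads only, and raw read counts per gene symbol were deposited for each of the 12 samples, without normalization. The count column of the library's strand was used (the opposite strand held 1.14% to 1.98%). Counts that fit no gene were left out of library sizes, which were 18850224 to 32672370. PBS and LPS libraries had 3 replicates per stage. Without the block the p-values weigh an effect against the spread between cultures. With the culture as a block they weigh it against how much the difference between LPS and PBS varies from culture to culture. In both fits this spread was estimated over the libraries of both stages.

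Genes with CPM above 0.5 in all libraries of at least 1 group were kept. Counts were scaled by TMM and fitted over the 4 groups by edgeR's quasi-likelihood test (edgeR 4.0.16, limma 3.58.1, R 4.3.3), with Benjamini-Hochberg adjustment over 13038 genes and a threshold of 0.05. The SE is the absolute log2 fold change divided by the square root of F. Replicate numbers come from the sample titles. Within a stage, LPS and PBS libraries of one number deviated from their group means together (correlations 0.710 to 0.784 in embryonic and 0.610 to 0.850 in adult stroma), so the numbers pair the samples and the blocked value is given beside the unblocked one. Across stages they did not (-0.306 to -0.00220). DESeq2 1.42.0, other size factors, no filter, unstranded counts, a fold threshold and leaving out libraries were alternatives, and the scripts were tested on simulated data.

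CPM per kb used the mean length of the annotated transcripts paired with a curated RefSeq mRNA (4 transcripts for Txnrd1, 1 for each other gene). Named genes were the 10 members, 5 regulators or sources of oxidants (Nfe2l2, Keap1, Bach1, Mtf1 and Cybb), at most 5 called genes of the wider list with the largest absolute log2 fold change per comparison and fit, and the 3 genes most correlated with each member. Other called genes of the wider list are named where a role has few. The members and lists were chosen with earlier results of these data known.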

Additional observations from a re-analysis of the deposited data

How the results depend on the processing

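With 3 libraries per group, the spread between cultures limited the LPS effects that could be resolved without the culture as a block. The biological coefficient of variation was 0.340 without and 0.126 with it. The block raised the called genes from 358 to 1635 in embryonic stroma, from 79 to 808 in adult stroma and from 0 to 110 for the interaction, and the called members from 2 to 4 and from 0 to 3 in the LPS effects. Across stages, where same numbers are not pairs, a block gave 1059 genes with LPS and 891 with PBS and no member. No member changed direction past the threshold in any setting, and the cause of each change of a count was not tested.

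DESeq2 called 684 genes in embryonic stroma, 294 in adult stroma (1 member, Slc7a11), 25 for the interaction, 1704 between stages with LPS and 1552 with PBS. Fitting each stage alone gave 4 genes and 0 members in embryonic and 225 genes and 2 members in adult stroma. In embryonic stroma 1 member was called with other size factors, without the filter, with unstranded counts, or when an absolute log2 fold change of 2 or more was also required. That condition left 385 genes between stages with LPS and 291 with PBS. Leaving out single libraries gave 114 to 471 genes and 0 to 2 members in embryonic stroma, 4 to 145 genes and 0 to 2 members in adult stroma, 132 to 814 genes and 0 to 1 member between stages with LPS, 152 to 638 genes and 0 members between stages with PBS, and 0 genes and 0 members for the interaction. The lowest counts came without embryonic PBS replicate 1 (114), adult PBS replicate 3 (4 and 152) and adult LPS replicate 3 (132), and the 1 member with LPS was Gclc (-0.78, adjusted p = 0.0239), without embryonic LPS replicate 2.

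Chosen after seeing the data, leaving out both libraries of embryonic culture 2 without the block gave 1 member in embryonic stroma, 119 genes in adult stroma, 1379 genes and 2 members between stages with LPS and 1291 genes and 2 members with PBS. With the block and both libraries of embryonic culture 1, 2 or 3 left out, embryonic stroma gave 1384, 1990 and 1049 genes with 4, 5 and 4 members, adult stroma 645, 1107 and 1243 genes with 3, 5 and 5 members, and the interaction 112, 164 and 121 genes. With adult culture 1, 2 or 3 left out, embryonic stroma gave 1243, 1225 and 1077 genes with 4 members each, adult stroma 270, 454 and 232 genes with 1, 2 and 3 members, and the interaction 48, 42 and 34 genes. DESeq2 with the block gave 1852 genes and 4 members in embryonic stroma, 1029 and 5 (Sod2, Txnrd1, Slc7a11, Mt1 and Mt2) in adult stroma and 270 and 0 for the interaction.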
